A study of Homo sapiens with 21 samples.

Results

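INHBA encodes the βA subunit of activin A, and the account below follows INHBA and 9 other genes of activin signalling in 786-O, a long-established human cell line from a clear cell renal carcinoma. The 10 genes were named one by one as subunits, a related ligand, antagonists, receptors and SMAD proteins of the pathway, out of 26809 genes matched in the RNA files. The list was chosen by the INHBA log2 fold change between knockout and control in these same libraries, so the values that set knockout against control are given for all 10 genes as a description, from which no significance is read. RNA was sequenced from cells infected with JMJD6 guide sg2 (labelled JMJD6 KO), with JMJD6 guide sg4 (labelled JMJD6 KO) or with the control guide sgCtrl (labelled JMJD6 WT), with 3 libraries in each group. JMJD6 is an iron- and 2-oxoglutarate-dependent oxygenase, and the comparison asks which RNAs differ in level when it is lost. The cells shared 1 growth protocol, with no further treatment given for the RNA libraries; the labels also carry a protocol for siRNA transfection, whereas the titles and extraction notes name guides. They do not say whether the libraries came from separate cultures or whether the knockout cells were clones, so the p-values measure the spread between these libraries, which may be technical.

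Activins are dimers of β subunits encoded by INHBA and INHBB. An activin dimer binds a type II receptor (ACVR2A or ACVR2B), which brings in and phosphorylates the type I receptor ACVR1B, and this in turn phosphorylates SMAD2 and SMAD3. The phosphorylated SMADs enter the nucleus with SMAD4 and act on target genes. Follistatin (FST) and follistatin-like 3 (FSTL3) bind activin outside the cell and keep it from its receptors, and SMAD7 is a target gene whose product inhibits the type I receptors. TGFB2 encodes TGF-β2, which uses other receptors but the same SMAD2 and SMAD3.

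The sequences before the start sites of INHBA, INHBB and FSTL3 are shown because these 3 genes were the members whose RNA was higher in all 6 knockout libraries than in every control. Each is the run of 250 bases before the start site in RefSeq (build GRCh38.p14), written 5′ to 3′ on the strand of the gene. Capitals mark matches to 5 motifs searched on both strands. The motifs were the SMAD element CAGAC, the AP-1 element TGANTCA, the TATA box TATAAA, the GC box GGGCGG and the cAMP response motif TGACG, and neighbouring GC boxes can overlap. INHBA lies on the minus strand at chr7:41703091-41703340, INHBB on the plus strand at chr2:120345886-120346135 and FSTL3 on the plus strand at chr19:676142-676391.
INHBA: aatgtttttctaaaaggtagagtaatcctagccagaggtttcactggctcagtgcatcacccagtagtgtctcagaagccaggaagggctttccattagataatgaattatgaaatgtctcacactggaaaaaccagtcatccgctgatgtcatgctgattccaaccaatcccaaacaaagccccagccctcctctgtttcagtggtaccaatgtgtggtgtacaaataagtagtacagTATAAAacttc
INHBB: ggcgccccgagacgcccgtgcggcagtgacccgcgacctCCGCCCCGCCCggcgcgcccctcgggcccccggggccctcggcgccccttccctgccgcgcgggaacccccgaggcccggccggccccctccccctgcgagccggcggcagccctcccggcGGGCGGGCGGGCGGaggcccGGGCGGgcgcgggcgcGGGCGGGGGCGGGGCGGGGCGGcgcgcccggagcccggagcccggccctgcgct
FSTL3: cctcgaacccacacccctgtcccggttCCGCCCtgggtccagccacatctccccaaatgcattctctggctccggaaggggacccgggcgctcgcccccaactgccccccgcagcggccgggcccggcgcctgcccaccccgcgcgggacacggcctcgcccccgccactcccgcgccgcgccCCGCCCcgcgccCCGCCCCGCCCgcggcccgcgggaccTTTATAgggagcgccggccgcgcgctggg
The 3 runs differ in base composition, with 42.8% G and C for INHBA, 89.6% for INHBB and 80% for FSTL3, against a median of 58% over 35116 such runs of 27305 genes. The INHBA run holds 1 TATA box, which starts 11 bases before the start site, and none of the other motifs. The FSTL3 run holds a TATA box on the opposite strand, beginning 29 bases before the start site, and 4 GC boxes. The INHBB run holds 10 GC boxes and no TATA box. Over all runs, 10.7% hold the TATA box, 42.6% the GC box, 38% the SMAD element, 6.57% the AP-1 element and 21.2% the cAMP response motif. No SMAD element lies in the 3 printed runs, while at least one run each of TGFB2, ACVR1B, SMAD3 and SMAD7 holds one. A match or its absence describes letters in these windows only, and the peak lists of the series were not used here.

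The libraries held from 14224263 to 16300347 estimated counts. JMJD6, the targeted gene, was at 16.8 ± 0.651 CPM with sg2 and 12.3 ± 1.91 CPM with sg4, against 42.3 ± 1.88 CPM in the controls (SD, n = 3 each), and all 6 knockout libraries lay below every control. CPM are estimated counts scaled to libraries of a common size with edgeR's TMM factors. Libraries differed in how counts went with transcript length: the slope of log2 CPM per doubling of length was −0.032 and −0.058 in sg4 libraries 2 and 3 and 0.056 in control 3, and between 0.001 and 0.011 in the other 6 libraries. Of 6 markers of renal carcinoma epithelium, such as PAX8, all were detected, with a summed level of 1807 to 1895 CPM with sg2, 1906 to 1953 CPM with sg4 and 1748 to 1799 CPM in the controls. The markers did not move together. KRT18 was at 171 to 198 CPM with sg2, 179 to 197 CPM with sg4 and 126 to 141 CPM in the controls, and KRT8 was also higher. PAX8 was at 246 to 319 CPM with sg2, 303 to 342 CPM with sg4 and 313 to 336 CPM in the controls. PAX2 and EPAS1 did not lie above the controls either, and CDH6 was at 220.2 to 276 CPM against 183 to 227 CPM. Of 9 markers of fibroblasts and pericytes, which also express INHBA in tissue, all 9 had a count in some library, and their sum was 19.8 to 25.2 CPM with sg2, 17.8 to 28.4 CPM with sg4 and 20.8 to 79.9 CPM in the controls. The highest sum was that of control 1, which held 298 counts of COL1A2 and 262 of LUM. LUM was higher in every control, at 7.32 to 17.6 CPM, than with sg2 (4.57 to 6.28 CPM) or sg4 (4.56 to 6.38 CPM). For PDGFRB and RGS5 the knockout and control ranges overlapped. Among the knockout libraries COL1A2 reached 45 counts, in an sg4 library. Of 7 markers of leukocytes and endothelium, CD3E and CDH5 were at 0 in all libraries, and the sum was 46.3 to 52.3 CPM with sg2, 48.1 to 56.3 CPM with sg4 and 54.2 to 68.7 CPM in the controls. Most of this sum was CD68, at 41.3 to 47.9 CPM with sg2, 44.1 to 53 CPM with sg4 and 52.1 to 66.2 CPM in the controls. CSF1R went the other way, at 3.96 to 4.99 CPM with sg2, 3.22 to 3.9 CPM with sg4 and 2.13 to 2.41 CPM in the controls. PTPRC, PECAM1 and VWF had at most 4 counts in any library. Beyond the fits without control 1, the part of these marker levels in the results was not tested.

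INHBA, the βA subunit gene, was at 90.6, 111 and 88.2 CPM in the sg2 libraries, 83.7, 93.4 and 72.6 CPM in the sg4 libraries and 46.1, 43.7 and 49.6 CPM in the controls. Every knockout library was above every control, and the lowest of them was sg4 library 3. The counts behind these values were 1104 to 1559 in the knockout libraries and 670 to 698 in the controls. The fitted log2 fold change was 1.06 ± 0.0899 (SE) with sg2, a 2.08-fold higher level, and 0.84 ± 0.0902 with sg4, a 1.79-fold higher level. For the mean of both guides it was 0.95 ± 0.0804, or 1.93-fold, and its fitted increase ranked 50 of the 13530 genes tested. In bulk RNA, more cells with a given level and more RNA per cell cannot be told apart. INHBA was as much higher without control 1, the library with the high fibroblast sum (log2 fold change 0.947), and without the 3 libraries with a length slope (1.003). All of its counts were assigned to 1 transcript, NM_002192, of 6064 nt.

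INHBB, the βB subunit gene, had fewer counts and was at 12.2, 10.1 and 12.6 CPM with sg2, 12.3, 14.2 and 17.5 CPM with sg4, and 9.02, 9.45 and 8.32 CPM in the controls. All 6 knockout libraries were again above every control, with sg4 library 3 the highest. The log2 fold change was 0.38 ± 0.148 with sg2 and 0.71 ± 0.145 with sg4 (SE), and 0.55 ± 0.129 for the mean of both guides, which is a 1.46-fold higher level. Between 117 and 266 counts stood behind each value. Sg4 library 3 and control 3, at the highest and the lowest INHBB level, are among the libraries with a length slope. Without these libraries and sg4 library 2, which keeps sg4 library 1 alone for its guide, the log2 fold change was 0.37. With the length trend removed from all 9 libraries it was 0.56.

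**Figure D1:**
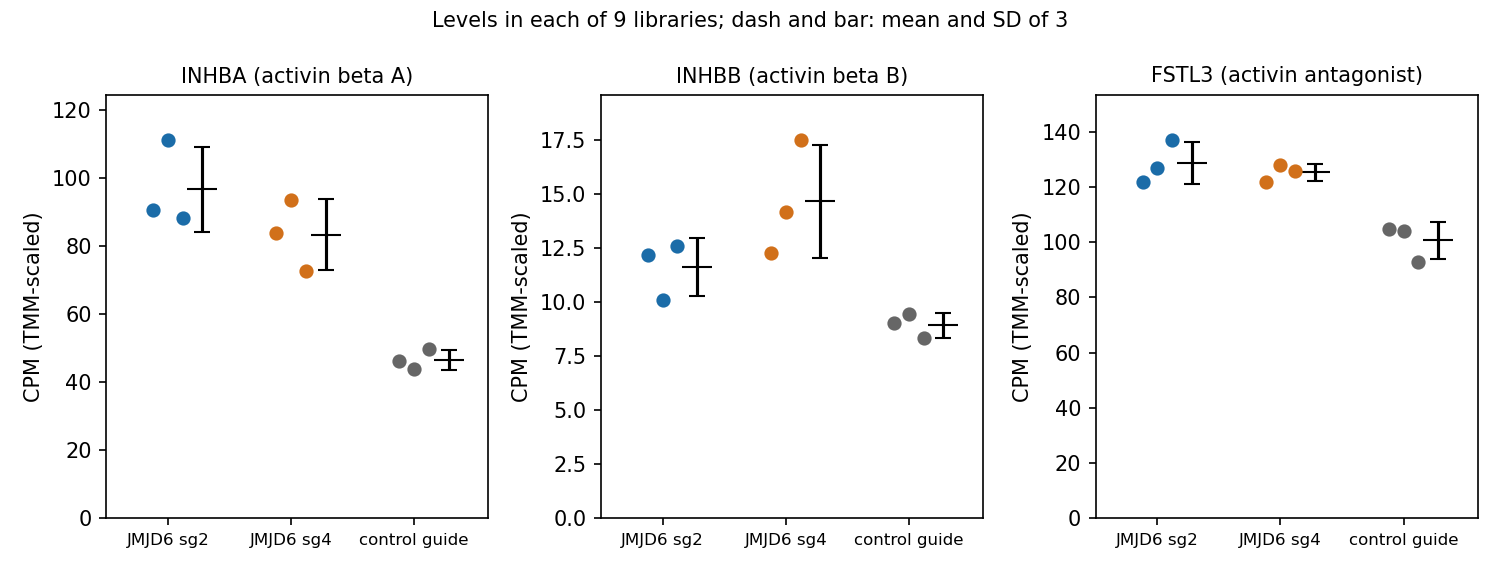
Level in CPM (TMM-scaled, axes from 0) of INHBA, INHBB and FSTL3 in each of 9 libraries. Points are libraries (sg2, sg4, control guide), and the dash and bar give the mean and SD of 3; INHBA is at 72.6 to 111 CPM in the knockout libraries and at 43.7 to 49.6 CPM in the controls, and in all 3 panels the knockout points lie above the control points.

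The ratio of the 2 subunit RNAs was taken on the TPM scale, which divides by transcript length. INHBA RNA was 4.29 ± 1.09 times INHBB RNA with sg2, 2.95 ± 0.741 times with sg4 and 2.64 ± 0.344 times in the controls (SD, n = 3 each). The ranges of sg4 and control libraries overlapped, since sg4 library 3 had the lowest ratio of all, 2.09. The sg2 libraries were at 3.78, 5.54 and 3.54. In sg2 library 2, the highest, INHBA was at its highest and INHBB at its lowest among the knockout libraries, and in sg4 library 3 the reverse held. TGFB2, the related ligand gene, was at 124, 139.7 and 128 CPM with sg2, 125, 108 and 107 CPM with sg4 and 124, 118 and 124 CPM in the controls. The sg2 libraries lay above the highest control, one of them by less than the rounding shown, and 2 of the sg4 libraries lay below the lowest. The log2 fold change was 0.10 ± 0.0654 with sg2 and −0.10 ± 0.0657 with sg4 (SE). Without control 3 and sg4 libraries 2 and 3 the sg4 value was 0.05. That fit keeps sg4 library 1 alone for its guide. The sg4 libraries left out were the 2 below every control, so a higher value follows from leaving them out.

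FSTL3, the secreted antagonist, had the highest TPM of the 10 genes. It was at 122, 127 and 137 CPM with sg2, 122, 128 and 126 CPM with sg4 and 105, 104 and 93 CPM in the controls. The lowest knockout library was above the highest control. The log2 fold change was 0.36 ± 0.0628 with sg2 and 0.32 ± 0.0628 with sg4 (SE), and 0.34 ± 0.0551 for both, a 1.26-fold higher level. FST, the gene of follistatin itself, was at the limit of detection: it had 0 counts in the 3 sg2 libraries, 1, 0 and 4 in the sg4 libraries and 4, 0 and 0 in the controls. A count of 0 allows up to 3 counts, which is 0.184 to 0.211 CPM in these libraries (counting error only), so no difference in FST was detectable at this depth, and FST did not pass the filter on low counts. Of the pair of antagonists, only FSTL3 had counts in every library.

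The type I receptor gene ACVR1B was at 32 to 33.2 CPM with sg2, 32.5 to 37.4 CPM with sg4 and 34.7 to 37.4 CPM in the controls, with a log2 fold change of −0.15 ± 0.0832 with sg2 and −0.06 ± 0.0826 with sg4 (SE). The sg2 libraries were below every control and the sg4 libraries were not. The type II receptor gene ACVR2B was at 9.55, 9.34 and 11.2 CPM with sg2, 10.2, 12.9 and 8.95 CPM with sg4 and 11.6, 12.5 and 14.1 CPM in the controls. All 3 sg2 libraries and 2 of the sg4 libraries were below every control, and sg4 library 2 lay within the control range. Its log2 fold change was −0.34 ± 0.147 with sg2, −0.26 ± 0.146 with sg4 and −0.30 ± 0.126 for both (SE). ACVR2A, the other type II receptor gene, was at 8 to 10.3 CPM with sg2, 7.4 to 9.34 CPM with sg4 and 7.41 to 9.74 CPM in the controls, and its log2 fold change was 0.05 ± 0.138 for both guides. Its groups overlapped, and with 110 to 145 counts per library its interval of 2 SE on either side ran from −0.22 to 0.33.

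SMAD3, which carries the activin signal to the nucleus, was at 209.6 to 232 CPM with sg2, 198 to 214 CPM with sg4 and 185 to 222 CPM in the controls. SMAD7, the feedback inhibitor, was at 42.1 to 47.8 CPM with sg2, 46.2 to 50.4 CPM with sg4 and 42.9 to 45.3 CPM in the controls. For SMAD3 the groups overlapped, and for SMAD7 the sg4 libraries were above every control while the sg2 libraries were not. The log2 fold change for both guides was 0.06 ± 0.0547 for SMAD3 and 0.06 ± 0.066 for SMAD7 (SE), with 2-SE intervals of −0.05 to 0.17 and −0.07 to 0.20.

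**Figure D2:**
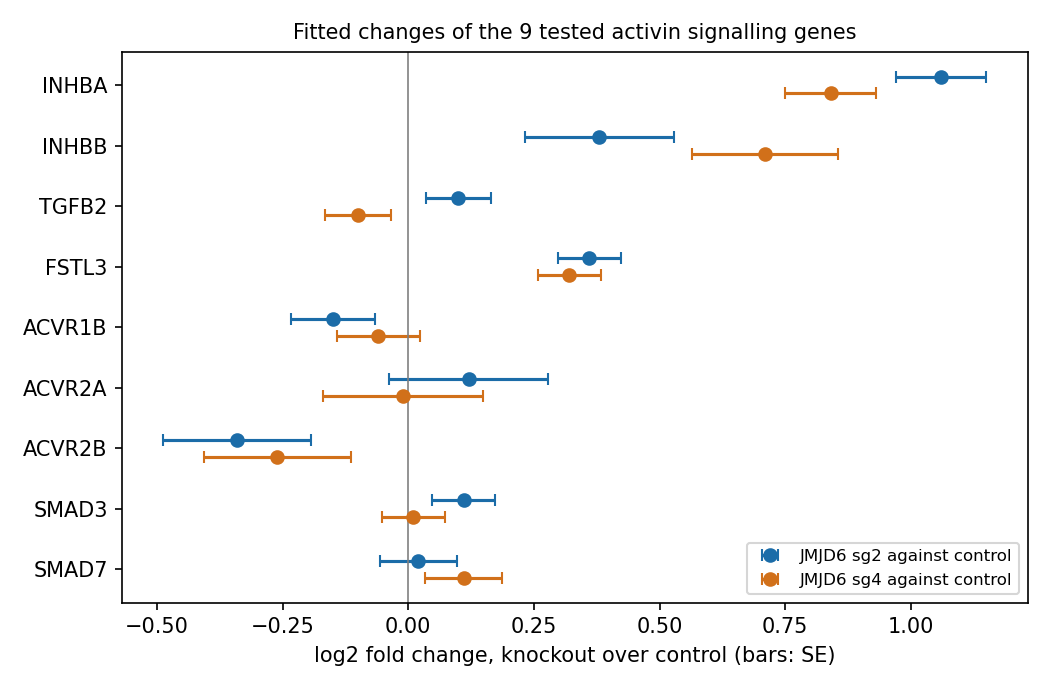
Fitted log2 fold change over the control of the 9 genes that passed the filter, for JMJD6 sg2 (upper point of each pair) and sg4 (lower point), with bars of 1 SE. INHBA lies at 1.06 and 0.84, INHBB at 0.38 and 0.71 and FSTL3 at 0.36 and 0.32, and the other 6 genes lie between −0.34 and 0.12.

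Of the 10 genes, 9 passed the filter and entered the fit of all genes. When both guides together were set against the control, 3 of the 9, INHBA, INHBB and FSTL3, lay past the threshold used for all genes (edgeR adjusted p under 0.05), all higher. This is no test of them, since the list was chosen by this contrast. Over all genes tested, 13.9% were called, 6.92% as higher and 6.95% as lower. With sg2 alone INHBA and FSTL3 lay past the threshold, beside 10.4% of all genes (5% higher and 5.36% lower). With sg4 alone it was the same 3 as for both guides, beside 8.43% of all genes (4.65% higher and 3.78% lower). INHBA and FSTL3 thus lay past it with each guide in 1 direction, as did 4.98% of all genes. The median log2 fold change of the 9 genes was 0.06 for both guides, and that of all genes −0.01. Knockout libraries all lay above every control for 3 of the 9 genes and for 7.76% of all genes, and all below for 0 of the 9 and for 7.18% of all genes. The 2 guides share their 3 controls, and since the list was built around INHBA with these contrasts known, nothing is read from these counts.

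The contrast of sg4 with sg2 played no part in the choice of genes. By edgeR's quasi-likelihood test with Benjamini-Hochberg adjustment over all genes, 0 of the 9 genes were called in it, beside 0.0591% (8 of 13530) of all genes. At an unadjusted p under 0.05 there were 3 of the 9 and 1337 (9.88%) of all genes, and DESeq2 called 0 of the 9 and 18 of all genes. INHBA was lower with sg4 than with sg2 by a log2 difference of −0.21 ± 0.086 (SE, edgeR adjusted p = 0.438), with a 2-SE interval of −0.39 to −0.04, and 2 of the 3 sg4 libraries were below every sg2 library. INHBB differed the other way, by 0.33 ± 0.141 (SE, edgeR adjusted p = 0.446), with an interval of 0.05 to 0.61, and 2 of the 3 sg4 libraries were above every sg2 library. TGFB2 was lower with sg4 by −0.20 ± 0.0655 (SE, edgeR adjusted p = 0.33), also in 2 of 3 libraries. None of these 3 differences passed the adjustment, and the intervals leave room for a difference between the guides. With 1 library left out the difference ran from −0.30 to −0.10 for INHBA, from 0.19 to 0.45 for INHBB and from −0.27 to −0.15 for TGFB2. In the fit without control 3 and sg4 libraries 2 and 3, sg4 library 1 alone stood for its guide. The difference there was −0.20 for INHBA, 0.08 for INHBB and −0.06 for TGFB2. For INHBB and TGFB2 the sg4 libraries left out were those furthest from sg2, so a smaller difference follows from leaving them out. For FSTL3 the difference was −0.04 (interval −0.16 to 0.09, edgeR adjusted p = 0.88), and for the other 5 genes the adjusted p ran from 0.611 for SMAD3 to 0.884 for ACVR2B.

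Levels of different genes were compared as TPM, the deposited transcript values per length summed per gene. In the controls the order was FSTL3 (87.1 ± 4.2 TPM), SMAD3 (69.6 ± 6.95), TGFB2 (41.8 ± 1.91), SMAD7 (35.2 ± 0.732), ACVR1B (16.3 ± 0.891), INHBA (15.5 ± 1.32), INHBB (5.89 ± 0.26), ACVR2A (3.29 ± 0.516), ACVR2B (2.21 ± 0.265) and FST (0.107 ± 0.186; SD, n = 3). INHBA and ACVR1B did not differ beyond their spread there, and the other neighbours had ranges that did not overlap. In the knockout cells INHBA stood above ACVR1B, at 31.5 ± 3.72 TPM against 14.4 ± 0.275 TPM with sg2 and at 26.2 ± 3.49 TPM against 14.7 ± 0.657 TPM with sg4. With sg2 its range then overlapped that of SMAD7 (35.1 ± 1.95 TPM). INHBA RNA was above that of 70.9% of all genes with a TPM with sg2 and of 67.9% with sg4, against 55.3% in the controls.

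**Figure D3:**
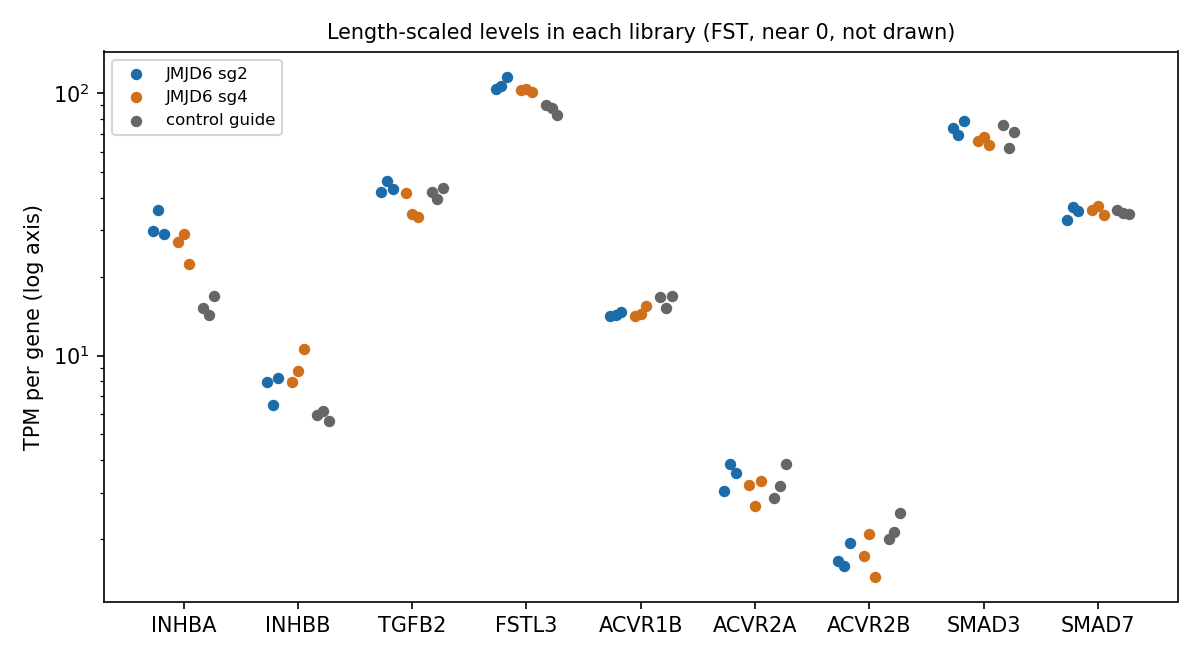
TPM per gene (log axis) of 9 of the 10 genes in each library, by group (sg2, sg4, control guide from left to right); FST, with at most 4 counts, is not drawn. INHBA lies near SMAD7 with sg2 (31.5 and 35.1 TPM) and near ACVR1B in the controls (15.5 and 16.3 TPM), while ACVR2A and ACVR2B are the lowest genes drawn.

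The balance between ligand and receptor or antagonist RNA was described by ratios of TPM within each library. The summed TPM of INHBA and INHBB was 8.03, 7.78 and 6.78 times that of ACVR2A and ACVR2B in the sg2 libraries, 7.09, 7.95 and 6.93 times in the sg4 libraries and 4.37, 3.85 and 3.54 times in the controls. The means were 7.53 ± 0.663 with sg2, 7.32 ± 0.547 with sg4 and 3.92 ± 0.422 in the controls (SD, n = 3 each), and no knockout library came near the control range. INHBA RNA was 0.291 ± 0.0433 of FSTL3 RNA with sg2, 0.255 ± 0.031 with sg4 and 0.178 ± 0.0232 in the controls (SD, n = 3 each). Here the groups were closer, with the lowest knockout library (sg4 library 3) at 0.221 and the highest control (control 3) at 0.205. The ratio of ACVR2A to ACVR2B was 2.06 ± 0.351 with sg2, 1.83 ± 0.523 with sg4 and 1.48 ± 0.0558 in the controls, with overlap between sg4 and control libraries. RNA ratios say nothing of the amounts of protein.

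**Figure D4:**
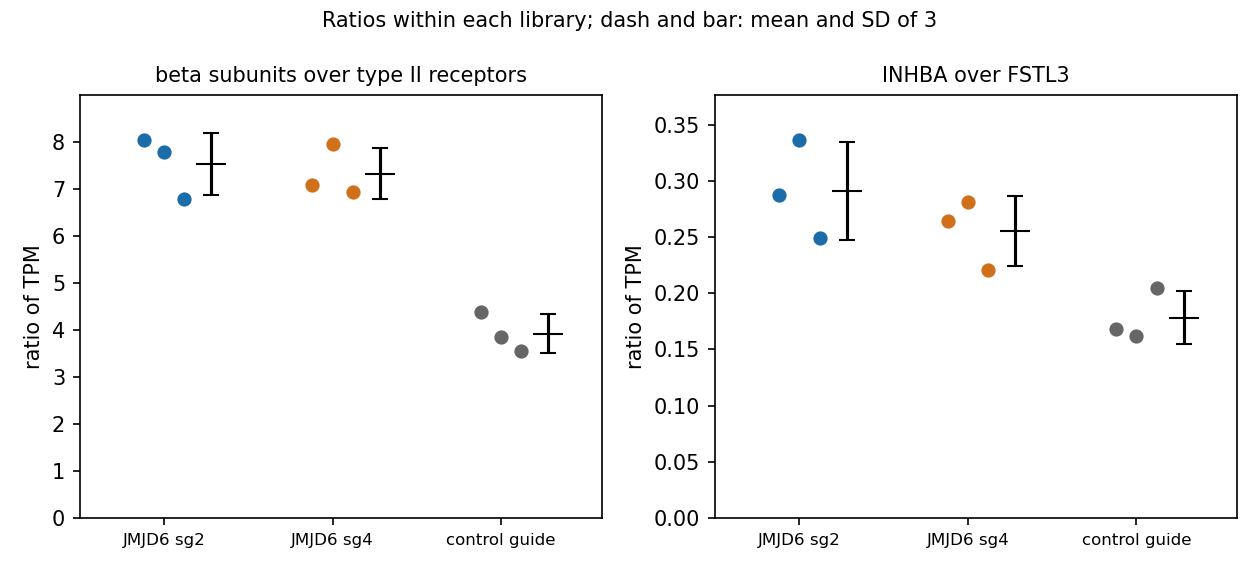
Ratios of TPM within each library for the 2 β subunit genes over the 2 type II receptor genes (left) and for INHBA over FSTL3 (right), with axes from 0. Points are libraries, and the dash and bar give the mean and SD of 3; the left ratio is 6.78 to 8.03 in the knockout libraries and 3.54 to 4.37 in the controls, and the right ratio is 0.221 to 0.336 against 0.162 to 0.205.

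At the transcript level the files list 24 transcripts of the 10 genes. INHBA, INHBB, FSTL3 and ACVR2B have 1 each, so their gene values are transcript values. The TPM of the other genes with counts in every library were divided almost evenly among their transcripts: the 3 of ACVR1B held between 30.6% and 37.4% of the gene's TPM in every library, the 4 of SMAD7 between 20.9% and 28.9% and the 4 of SMAD3 between 20.5% and 33.8%. The 4 of TGFB2, of which 2 carry RefSeq's NR prefix for noncoding transcripts, held between 18.9% and 31.7%. ACVR2A, with the fewest counts, ranged from 25.2% to 41.5%. For 18 of these 18 transcripts the range of shares in the knockout libraries overlapped that in the controls. How reads shared by transcripts of 1 gene were divided is not given in the sources used here, so these near-even shares may not reflect isoform usage, and no isoform is compared.

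Over the 9 libraries, the log2 CPM of the 11306 genes that averaged 2 or more on that scale were correlated with those of INHBA, as a description. The 5 genes most like INHBA were PVR (r = 0.989), UBASH3B (0.989), FBXO45 (0.984), OGFRL1 (0.979) and RECK (0.978), and the 3 most opposite were BICD1 (−0.983), DNAJB12 (−0.982) and HEXA (−0.981). PVR encodes a cell-surface adhesion protein and ligand of immune receptors, and RECK a membrane-bound inhibitor of matrix metalloproteinases. HEXA encodes a subunit of a lysosomal hexosaminidase. A value above 0.9 was reached by 0.946% of the genes and one below −0.9 by 1.03%. The points fall into knockout and control groups, which carries much of such an r. With each group's mean removed, PVR had 0.84, UBASH3B 0.90, FBXO45 0.95, OGFRL1 0.74 and RECK 0.77, and the 3 opposite genes −0.86 to −0.79. The genes were picked by an r that already includes the deviations within groups, so large values here follow in part from the picking. INHBB had 0.56 over the 9 libraries and −0.79 with group means removed, and FSTL3 0.86 and −0.29, so these genes went with INHBA between groups and not within them. The fold changes of the genes most alike were smaller than that of INHBA: UBASH3B was at 165 ± 9.43 CPM with sg2, 158 ± 10 CPM with sg4 and 124 ± 2.76 CPM in the controls (SD, n = 3 each), and RECK at 15.3 ± 1.35 CPM with sg2, 14.4 ± 0.559 CPM with sg4 and 11.2 ± 0.216 CPM in the controls.

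The rest of the pathway was read from 6 lists of 113 genes outside the 10, of which 84 were tested. The lists were written with results of these data known, so nothing is read from their shares of calls. Of these 84 genes, 9 had a call as higher and 5 as lower over both guides (16.7%, against 13.9% of all genes), with a median log2 fold change of 0.00. Between sg4 and sg2, edgeR and DESeq2 each called 0 of the 84. In edgeR 12 (14.3%) had an unadjusted p under 0.05, beside 9.88% of all genes.

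The list of genes known to be induced through SMAD2 and SMAD3 had the most calls. Of its 26 genes 25 were tested. In the mean of both guides 8 were called higher and 2 lower, which is 40% called against 13.9% of all genes. The choice of genes for this list, made with results known, may carry part of that share. The median log2 fold change was 0.06 against −0.01 for all genes. TGM2, the gene of a protein-crosslinking transglutaminase, was at 463 ± 43.6 CPM with sg2, 495 ± 33.3 CPM with sg4 and 341 ± 6.92 CPM in the controls (SD, n = 3 each), with a log2 fold change of 0.49 ± 0.0543 (SE, edgeR adjusted p = 1.64e-06) and all 6 knockout libraries above every control. SNAI2, a transcription factor of epithelial-mesenchymal transition, rose by 0.34 ± 0.0755 on the log2 scale (SE, edgeR adjusted p = 0.00325), with 5 of 6 knockout libraries above every control. IL11, a cytokine gene, was at 7.32, 8.56 and 9.49 CPM with sg2, 7.35, 6.41 and 6.12 CPM with sg4 and 5.79, 5.67 and 3.7 CPM in the controls. Its log2 fold change was 0.56 ± 0.167 (SE, edgeR adjusted p = 0.0253), and control 3 decided the call, since in the fits without that library its edgeR adjusted p was 0.14 and 0.192.

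The genes of this list called lower were FN1 and CDKN1A. FN1, the gene of the matrix protein fibronectin, was at 11554 ± 880 CPM with sg2, 11385 ± 386 CPM with sg4 and 14034 ± 802 CPM in the controls (SD, n = 3 each), with a log2 fold change of −0.29 ± 0.042 (SE, edgeR adjusted p = 4.26e-05). CDKN1A, the gene of the cell cycle inhibitor p21, was at 519 ± 6.12 CPM with sg2, 541 ± 35.7 CPM with sg4 and 643 ± 28.8 CPM in the controls (SD, n = 3 each), with −0.28 ± 0.0462 (SE, edgeR adjusted p = 0.000206). For FN1 and CDKN1A all 6 knockout libraries were below every control. Other genes that rose, named after their values were seen, were THBS1 (0.31), PMEPA1 (0.22), TGFBI (0.21) and KLF10 (0.19), given as log2 fold changes. These values are for the mean of both guides. Of the named genes of this list, TGM2, THBS1, FN1 and CDKN1A were also called with each guide alone. SNAI2, IL11, PMEPA1, TGFBI and KLF10 were called with sg2 alone but not with sg4 alone. Their sg4 edgeR adjusted p was 0.0716, 0.223, 0.216, 0.176 and 0.193 in that order. THBS1, TGM2, SNAI2, FN1 and CDKN1A kept their calls in all 15 other fits. TGFBI lost its call in 1 of them, without control 1, KLF10 in 3 and PMEPA1 in 6. Targets also known to respond to SMAD2 and SMAD3 but not called included CCN2 (0.06 ± 0.0745), JUNB (−0.04 ± 0.0522) and SKIL (0.12 ± 0.0583; log2 fold change and SE). SKIL gained a call with the length trend removed, at 0.157 (edgeR adjusted p = 0.0471). Fibroblasts also make FN1 RNA, and the part of such RNA in the FN1 values was not tested. Without control 1, the library with the high fibroblast sum, the log2 fold change of FN1 was −0.307. COL1A1, a collagen gene of this list, was not called, at −0.51 ± 0.262 (log2 fold change and SE), and was at 0.155 without control 1. Without control 2 the calls on this list came to 5 higher and 2 lower, and without control 3 to 5 higher and 3 lower. The call gained without control 3 was that of COL1A1, at −0.806 (edgeR adjusted p = 0.0448).

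**Figure D5:**
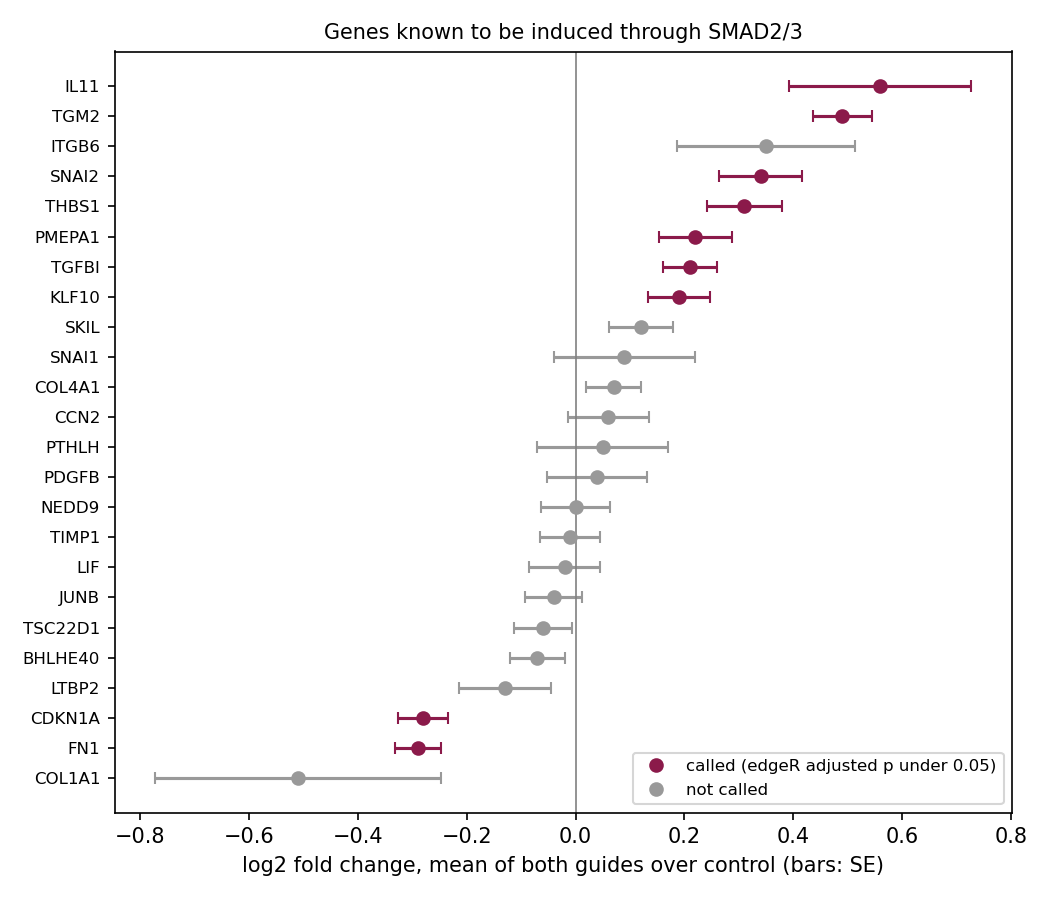
Log2 fold change, mean of both guides over the control, of 24 of the tested genes known to be induced through SMAD2 and SMAD3, sorted by value, with bars of 1 SE. Dark points passed the edgeR adjusted p of 0.05: 7 genes from KLF10 (0.19) to IL11 (0.56) lie to the right of 0, and CDKN1A (−0.28) and FN1 (−0.29) to the left.

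Among 26 other ligands of the family 10 were tested, 0 were called higher and 1 lower. TGFB1, the gene of TGF-β1, was at 294 ± 7.75 CPM with sg2, 289 ± 1.42 CPM with sg4 and 319.9 ± 9.92 CPM in the controls (SD, n = 3 each), with a log2 fold change of −0.13 ± 0.044 (SE, edgeR adjusted p = 0.0419) and all 6 knockout libraries below every control. That call lay close to the threshold and was lost in 10 of 15 other fits, with an edgeR adjusted p between 0.0527 and 0.217. INHA, whose α subunit pairs with the β subunits to form inhibin, was not called, at −0.63 ± 0.372 (log2 fold change and SE). Of 9 tested receptors and co-receptors, edgeR and DESeq2 each called 0, and 2 had an unadjusted p under 0.05 in edgeR, beside 26.9% (3644) of all genes. Their median log2 fold change was 0.02, with TGFBR1, the type I receptor of TGF-β, at 0.17 ± 0.0727 and the co-receptor ENG at −0.60 ± 0.282 (SE) as the highest and the lowest. With the length trend removed TGFBR1 gained a call, at 0.20 (edgeR adjusted p = 0.0499). Of 13 tested processing factors and antagonists, CHRDL1, a secreted BMP antagonist, rose by 0.27 ± 0.0534 on the log2 scale (SE, edgeR adjusted p = 0.0012), with all 6 knockout libraries above every control. LTBP3, which binds latent TGF-β in the matrix, fell by 0.16 on the log2 scale (edgeR adjusted p = 0.0445), and the call was lost in 8 of 15 other fits. FURIN, a protease that cleaves the activin precursor, was not called (−0.12 ± 0.0535). LEFTY1 of the ligands and GREM1 of the antagonists did not pass the filter on low counts. With no such filter LEFTY1 was called lower, at −5.08 (edgeR adjusted p = 0.00994), and GREM1 too, at −3.6 (edgeR adjusted p = 0.0443). DESeq2 gave neither gene an adjusted p.

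All 21 SMADs and SMAD regulators on the list were tested. PMEPA1, a transmembrane inhibitor of SMAD2 and SMAD3 signalling and itself a target, rose by 0.22 ± 0.0675 (log2, SE, edgeR adjusted p = 0.0321). SMAD1, which carries BMP signals, was at 9.75 ± 0.582 CPM with sg2, 8.88 ± 0.908 CPM with sg4 and 12.3 ± 1.59 CPM in the controls (SD, n = 3 each), with −0.40 ± 0.122 (log2, SE, edgeR adjusted p = 0.0289) and all 6 knockout libraries below every control. The PMEPA1 call was lost in 6 of 15 other fits and the SMAD1 call in 5. With each guide set alone against the control, PMEPA1 was called with sg2 only and SMAD1 with sg4 only. SMAD2 (0.10 ± 0.0606) and SMAD4 (0.09 ± 0.0564), the partners of SMAD3, were not called. Of the 11 BMP target genes tested, among them ID1 (−0.12 ± 0.0952) and ID3 (−0.21 ± 0.0937), 0 were called by edgeR and 0 by DESeq2 in the mean of both guides, and 2 of the 11 had an unadjusted p under 0.05, beside 26.9% of all genes. The median was −0.04, and ID3 gained a call in 4 of the other fits.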

How the data were processed

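RNA was measured in 9 libraries of 786-O cells. The deposited files hold, per the file headers, Salmon's estimated count, effective length and TPM for each RefSeq transcript. Every estimated count is whole; how they were rounded is not given in the sources used here. Salmon, STAR 2.5.2b and cutadapt 1.12 and the builds hg19 and GRCh37 are named per the submitters' processing notes; strand setting and annotation are not given in the sources used here.

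Estimated counts and TPM were summed per gene. Of 60422 accessions 58031 (96.0%) matched the RefSeq gene table of GRCh38.p14, used for names only; the rest held 1.33% to 1.65% of the counts and stayed out of library sizes. One edgeR 4.0.16 quasi-likelihood fit (R 4.3.3, limma 3.58.1, TMM, filterByExpr, 13530 genes) held all 9 libraries, with Benjamini-Hochberg adjustment over all genes and 2-sided tests called under 0.05. In data simulated from these libraries, the same code recovered most of the largest known changes. That check set no requirement on how many of the smaller changes were called. Each SE of a log2 fold change was its absolute value divided by the square root of edgeR's quasi-likelihood F, and so is approximate. DESeq2 1.42.0 and the other settings of the closing section were alternatives. Members and lists were chosen with earlier results of these data known. Beyond the 10 members and JMJD6, the genes named were the 5 most like and 3 most unlike INHBA and, per list, up to 3 called genes in each direction; further genes, chosen after their values were seen, are uncalled examples or called genes so marked. Same-numbered libraries did not deviate together (r from −0.215 to 0.0953), so numbers were not used as pairs. The peak lists (deposited as fold enrichment with −log10 p-values and q-values) are not used here. One gene of the SMAD2/3 target list, included in its counts, is not reported here by name and not drawn.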

Additional observations from a re-analysis of the deposited data

How the results depend on the processing

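The log2 fold changes of the 9 tested members were recomputed in 639 alternatives. Of these, 628 moved by less than the spread between replicates or kept their side of the threshold. The other 11 moved further, all 11 of them with sg4 against the control. The 162 alternatives for sg4 against sg2 were judged by the threshold alone. All 162 are among the 628 whatever their change in size, so that contrast could not add to the 11. INHBA ran from 0.87 to 1.00 for both guides (0.89 to 1.00 with 1 library left out). For sg4 against sg2 it ran from −0.30 to −0.10, with an edgeR, DESeq2 or limma adjusted p of 0.185 to 0.915. For both guides FSTL3 ran from 0.26 to 0.37 and INHBB from 0.37 to 0.61. The lowest value of each came without control 3 and sg4 libraries 2 and 3. That alternative was chosen after seeing the data and keeps 1 sg4 library.

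The counts of all genes called by edgeR depended more on single libraries. With 1 library left out they ran from 938 to 1878 for both guides (1877 with all), 735 to 1595 for sg2 (1402), 606 to 1227 for sg4 (1141) and 0 to 49 for sg4 against sg2 (8). The lowest counts came without control 1 (938 for both guides, 735 for sg2, 619 for sg4), control 3 (1045 for both, 626 for sg4), sg4 library 3 (606 for sg4) and sg2 libraries 1 and 2 (777 and 864 for sg2). Without control 3 and sg4 libraries 2 and 3 there were 1116 for both guides, 358 for sg4 and 0 for sg4 against sg2, where fewer samples also entered. The count for sg4 against sg2 was 72 with no filter on low counts, 18 with DESeq2 and 13 with the length trend removed. The pathway lists had 9 to 15 calls with 1 library left out (14 with all), 9 without control 2 or control 3. The causes of these differences were not tested.

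With the replicate number as a block, 1527 genes were called for both guides, 1089 for sg2, 869 for sg4 and 2 for sg4 against sg2, 13 pathway genes were called, and INHBA stood at 0.94 for both guides. The shared numbers are not known to pair libraries. A fit of only the libraries compared is the same as the fit of all libraries for both guides and was not run there. Depth limits FST, and 110 to 266 counts limit ACVR2A, ACVR2B and INHBB.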
